A study of Homo sapiens with 6 samples.

Results

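The IL-12 family genes examined were the 8 rows of the deposited gene table that carry the symbols EBI3, IL12A, IL12B, IL23A, IL27, IL12RB1, IL12RB2 and IL27RA on primary chromosomes, out of 63677 rows in all. They hold 5 cytokine chains and 3 receptor chains, and were chosen by name. RNA-Seq was performed on RPMI8226, a cell line from a human multiple myeloma, the malignancy of antibody-secreting plasma cells. Wild-type cells of this 1 line received for 6 hr either 100 nM glutathione-S-transferase (GST), or 100 nM GST-PTR1, in which GST is fused to the first proteoglycan tandem repeat of the matrix link protein HAPLN1. Both proteins were made in E. coli, each treatment had 3 biological replicates, and no untreated cells were part of the comparison, which asks what the PTR1 repeat adds to GST.

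Cytokines of the IL-12 family are heterodimers that share chains. An α chain, shaped like a helical cytokine (IL12A, IL23A or IL27), pairs with a β chain, shaped like a soluble receptor (IL12B or EBI3). IL12A with IL12B forms IL-12, IL23A with IL12B forms IL-23, IL27 with EBI3 forms IL-27, and IL12A with EBI3 forms IL-35, while a pair of IL23A with EBI3 has been described under the name IL-39. The receptors share chains as well: IL12RB1 serves both IL-12 and IL-23, and IL6ST serves the IL-27 receptor beside IL27RA and is also the common chain of the IL-6 family. In the body the cytokine chains are best known from activated dendritic cells, macrophages and B cells, and the receptors from T and NK cells.

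The library totals lay between 15202503 and 23453473 counts with GST and between 22874133 and 44688737 with GST-PTR1, so that 3 counts were worth from 0.0671 to 0.197 CPM (a gene's counts scaled to a library total of 1000000) in a library. The limit of detection of a treatment was set at 3 counts in each of its 3 libraries, and limits of this kind cover counting error only. The libraries of a treatment are given below in order of their totals, smallest first, because the column names could be matched to a treatment but not to a replicate number. Of the 8 plasma cell markers, all passed the filter on low counts, and their summed level was 3995 to 4943 CPM with GST and 3311 to 3967 CPM with GST-PTR1. These sums are on library totals, on which the median log2 fold change over all genes tested was -0.19. JCHAIN and MZB1, the most abundant of the list at means of 2324 and 952 CPM with GST, did not pass the test, nor did CD38. Their log2 fold changes were 0.07, -0.10 and 0.16, with adjusted p = 0.773, 0.67 and 0.347. SDC1 (syndecan-1), TNFRSF17 and XBP1 of that list fell, by 1.03, 1.41 and 0.47 on the log2 scale, with adjusted p = 0.000272, 0.000374 and 0.0149. SLAMF7 and PRDM1, the latter a regulator of plasma cell identity, rose by 1.52 and 1.35 with adjusted p = 5.81e-05 and 1.56e-05.

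Markers of macrophages and dendritic cells, which are among the usual makers of these cytokines, were scarce. No list of markers was made for B cells, which are also among them. The 10 markers of monocytes, macrophages and dendritic cells summed to 3.29 to 4.43 CPM with GST and 5.81 to 10.9 CPM with GST-PTR1. Of these, FCER1A, CD1C and FCN1 had 0 counts in all 6 libraries and 5 of the 10 had at most 3 counts in every library, while S100A9, a calcium-binding protein of myeloid cells, rose by 1.68 (adjusted p = 0.00462), from 1.71, 2.24 and 3.54 CPM to 4.94, 6.17 and 9.87 CPM. The 9 markers of T and NK cells summed to 5.46 to 5.8 CPM with GST and 2.71 to 3.37 CPM with GST-PTR1, nearly all of it CD8A, which fell by 0.70 (adjusted p = 0.0132), and 8 of the 9 were at or under 3 counts everywhere. The 6 stromal markers summed to 0.263 to 0.554 CPM and 0.336 to 0.393 CPM. The part of S100A9-expressing or other cells in the results was not tested, and in bulk RNA fewer cells of a kind and less RNA per cell cannot be told apart.

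The promoters of 4 of these genes are printed to show where the motifs searched for lie, or are missing, in genes that rose and in one that did not. Each sequence is the 250 bases before the RefSeq start site in GRCh38.p14, read on the gene's own strand, with matches in capitals. EBI3 and IL12B are the β chains, IL23A is an α chain, and IL27RA is a receptor chain.
EBI3, chr19:4229273-4229522, plus strand: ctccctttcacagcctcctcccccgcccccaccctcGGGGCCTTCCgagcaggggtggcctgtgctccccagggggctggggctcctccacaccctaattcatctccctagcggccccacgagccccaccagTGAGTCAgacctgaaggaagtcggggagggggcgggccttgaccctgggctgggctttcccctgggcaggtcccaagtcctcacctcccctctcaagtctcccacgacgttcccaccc
IL12B, chr5:159330488-159330737, minus strand: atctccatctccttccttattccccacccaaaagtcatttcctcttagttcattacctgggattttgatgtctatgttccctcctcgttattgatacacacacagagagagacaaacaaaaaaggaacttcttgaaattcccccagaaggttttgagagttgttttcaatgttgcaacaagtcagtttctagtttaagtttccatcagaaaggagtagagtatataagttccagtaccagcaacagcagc
IL23A, chr12:56338634-56338883, plus strand: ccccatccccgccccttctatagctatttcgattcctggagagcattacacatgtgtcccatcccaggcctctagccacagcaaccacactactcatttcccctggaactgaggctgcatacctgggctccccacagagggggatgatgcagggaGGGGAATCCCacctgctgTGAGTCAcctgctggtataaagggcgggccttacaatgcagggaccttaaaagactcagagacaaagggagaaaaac
IL27RA, chr19:14031512-14031761, plus strand: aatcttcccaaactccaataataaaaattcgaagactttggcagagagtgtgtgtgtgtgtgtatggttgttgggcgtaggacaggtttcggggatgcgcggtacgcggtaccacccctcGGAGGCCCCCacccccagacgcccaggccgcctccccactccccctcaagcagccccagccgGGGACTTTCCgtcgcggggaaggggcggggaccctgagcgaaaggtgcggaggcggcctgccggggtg

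In the EBI3 promoter the capitals mark GGGGCCTTCC, a match to the NF-κB consensus from -214 to -205, and TGAGTCA, a match to the AP-1 motif TGANTCA from -118 to -112, counted backwards from the start site. The IL23A promoter held both motifs close together, the NF-κB match GGGGAATCCC from -95 to -86 and the AP-1 match from -77 to -71. IL27RA held 2 NF-κB matches, GGAGGCCCCC from -130 to -121 and GGGACTTTCC from -68 to -59. IL12A, not printed, held 1 such match, GGGGTGTCCC from -44 to -35. In the windows of IL12B, IL12RB1 and IL12RB2 neither motif was found, and the interferon-stimulated response element (ISRE, GAAA repeated after a gap of 2 bases) was found in no promoter of the 7 genes in the table. Only full matches were searched, so shorter or variant sites would be missed. For NF-κB the pattern was GGGRNNYYCC, with R for A or G, Y for C or T and N for any base. Both strands were searched. Of 34788 promoter windows of the same length, 9.95% held the NF-κB motif, 6.59% the AP-1 motif and 3.02% the ISRE. A match here is a string of letters and not a measured binding site, and IL27RA with 2 matches was not among the genes that rose. IL27 had no entry in the promoter table.

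All 5 cytokine chains had higher CPM in each GST-PTR1 library than in any GST library, and 4 of them rose by the test over all genes, while no receptor chain passed it. The rise was 106-fold for EBI3, 18.1-fold for IL12B and at least 20.4-fold for IL27. As background, 9.15% of the 16926 genes tested rose and 11.4% fell at an adjusted p under 0.05, and 8.71% had non-overlapping CPM with GST-PTR1 higher. Of the 8 genes, 7 passed the filter on low counts. IL27 and EBI3 passed it through the GST-PTR1 libraries, since the filter asks for 3 libraries at 0.432 CPM or more and 0 and 2 GST libraries reached that level, so their tests are tests of genes that entered on the side where they are high.

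Among the α chains, IL27 (ENSG00000197272, chromosome 16, 28510683 to 28523372 in GRCh37, minus strand) moved from the limit of detection to a clear signal. Its counts were 0, 0 and 1 with GST and 66, 94 and 158 with GST-PTR1. In CPM the GST-PTR1 libraries stood at 2.89, 3.26 and 3.54, close to each other and far above any GST library. With GST taken at its limit of 3 counts per library, IL27 was at least 20.4-fold higher, or at least 4.35 on the log2 scale. This bound is a ratio of CPM on library totals, while the adjusted p of 1.86e-06 is from the test over all genes.

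IL23A (ENSG00000110944, chromosome 12, 56732663 to 56734193, plus strand), the chain that defines IL-23, rose less and from a low but measurable level. Its level was 0.592, 0.448 and 0.81 CPM with GST and 0.962, 1.8 and 1.45 CPM with GST-PTR1, from 9, 9 and 19 counts and 22, 52 and 65 counts. The treatments did not overlap, but the lowest GST-PTR1 library lay just above the highest GST library. The log2 fold change was 1.38 (SE 0.34, adjusted p = 0.0146). The call rests on single libraries: leaving out the GST library with 20077280 counts gave 1.20 with adjusted p = 0.0589, and leaving out the GST-PTR1 library with 28837431 counts gave 1.21 with adjusted p = 0.0571.

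IL12A (ENSG00000168811, chromosome 3, 159706537 to 159713806, plus strand), the α chain of IL-12 and IL-35, did not pass the test. Its level was 0.921, 1.1 and 1.24 CPM with GST and 1.79, 1.35 and 1.36 CPM with GST-PTR1, with the larger GST-PTR1 libraries only slightly above the highest GST library. The log2 fold change was 0.63 (SE 0.24, adjusted p = 0.0902), on 14 to 29 counts with GST and 39 to 61 with GST-PTR1. Of its exon bases, 3.82% lie opposite the antisense gene IL12A-AS1, and reads were counted by strand.

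Both β chains, each shared by several cytokines, rose. EBI3 (ENSG00000105246, chromosome 19, 4229495 to 4237528, plus strand), first known as a gene that Epstein-Barr virus induces in B cells, had 8, 8 and 11 counts with GST and 886, 1363 and 1926 counts with GST-PTR1. Its level went from 0.526, 0.398 and 0.469 CPM to 38.7, 47.3 and 43.1 CPM. The libraries of each treatment lay close together and the treatments were far apart, with a log2 fold change of 6.73 (SE 0.19, adjusted p = 4.03e-09).

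IL12B (ENSG00000113302, chromosome 5, 158741791 to 158757895, minus strand), the chain common to IL-12 and IL-23, was already expressed with GST. Its level was 4.28, 5.73 and 5.88 CPM with GST and 56.4, 94 and 101 CPM with GST-PTR1. The smallest GST-PTR1 library was well below the other two, yet every GST-PTR1 library was far above every GST library. The log2 fold change was 4.18 (SE 0.26, adjusted p = 8.96e-07). The SD with GST-PTR1, 24 CPM on a mean of 83.8, was the widest of the 8 genes in CPM, where IL12B also had the highest mean. Relative to its mean, the spread of IL23A was similar, with an SD of 0.423 on 1.41 CPM.

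**Figure D1:**
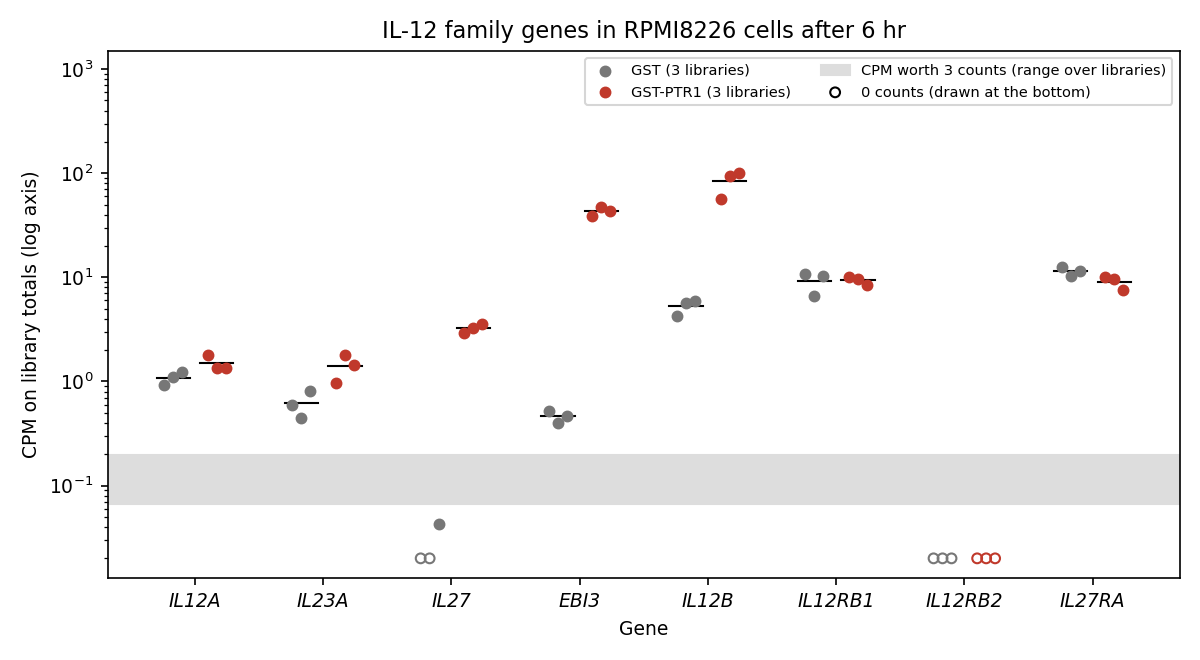
Level of each of the 8 genes in each library, in CPM on a log axis, with GST in grey and GST-PTR1 in red, the mean of 3 libraries as a line where none is at 0 counts, the CPM worth 3 counts as a band and libraries with 0 counts as open circles at the bottom. EBI3, IL12B and IL27 are widely separated between treatments, IL12A and IL23A narrowly, and IL12RB1 overlaps.

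The receptor chains did not move with the cytokine chains. IL12RB1 (ENSG00000096996, chromosome 19, 18169805 to 18209754, minus strand), the receptor chain that binds IL12B, was at 10.7, 6.57 and 10.4 CPM with GST and 10.1, 9.54 and 8.44 CPM with GST-PTR1. All 3 GST-PTR1 libraries lay within the range of the GST libraries. The log2 fold change was 0.22 (SE 0.18, adjusted p = 0.404).

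IL27RA (ENSG00000104998, chromosome 19, 14142560 to 14163743, plus strand), the private chain of the IL-27 receptor, was at 12.7, 10.4 and 11.6 CPM with GST and 9.97, 9.54 and 7.61 CPM with GST-PTR1. On library totals each GST-PTR1 library was below each GST library, where 43.1% of all genes tested did not overlap in either direction. The exact permutation test on CPM gave p = 0.1, the smallest that 3 against 3 libraries allow. On totals scaled by trimmed mean of M values (TMM) the treatments overlapped, and the log2 fold change was -0.16 (SE 0.14, adjusted p = 0.425).

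IL12RB2 (ENSG00000081985, chromosome 1, 67773047 to 67862583, plus strand), the signalling chain of the IL-12 receptor, had 0 counts in all 6 libraries and was not tested. A count of 0 allows up to 0.197 CPM in the smallest library and 0.0671 CPM in the largest. IL23R, the private chain of the IL-23 receptor and not one of the 8 genes, also had 0 counts in all 6 libraries. IL6ST, the partner of IL27RA, was abundant, at 150, 169 and 133 CPM with GST and 143, 153 and 139 CPM with GST-PTR1. Its treatments overlapped, with a log2 fold change of 0.14 (SE 0.11, adjusted p = 0.405).

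Levels of different genes were compared per length, as RPKM, the CPM divided by the length of the gene's exons in kilobases. With GST the order of the 8 genes was IL27RA at 4.31 ± 0.436 (SD, n = 3), IL12RB1 at 2.15 ± 0.537, IL12B at 1.92 ± 0.321, IL23A at 0.593 ± 0.175, IL12A at 0.532 ± 0.0775 and EBI3 at 0.362 ± 0.0498 RPKM, with IL27 at the limit and IL12RB2 at 0 counts. IL12RB1 and IL12B lay within 1 SD of each other, and so did IL23A and IL12A. With GST-PTR1 the order was EBI3 at 33.5 ± 3.32, IL12B at 30.3 ± 8.7, IL27RA at 3.38 ± 0.469, IL27 at 2.54 ± 0.257, IL12RB1 at 2.18 ± 0.201, IL23A at 1.35 ± 0.406 and IL12A at 0.737 ± 0.123 RPKM. EBI3 and IL12B did not differ beyond their spread there. The β chains, of which EBI3 was the lowest of the chains above the limit with GST, thus stood above the receptor chains with GST-PTR1, while the α chains IL23A and IL12A were the lowest of the chains detected.

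A heterodimer was counted as having both chains in a treatment when each chain had more than 3 counts in each of the 3 libraries. With GST, 4 of the 5 cytokine pairs met this: IL-12, IL-23, IL-35 and the pair of IL23A with EBI3. IL-27 did not, because IL27 was at the limit of detection. With GST-PTR1 all 5 cytokine pairs met it. Of the 4 receptor pairs, the IL-27 receptor (IL27RA with IL6ST) had both chains in both treatments, and the other 3 lacked IL12RB2 or IL23R in both. Those were IL12RB1 with IL12RB2 for IL-12, IL12RB1 with IL23R for IL-23 and IL12RB2 with IL6ST for IL-35. No other receptor make-up was scored.

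The counts of cytokine pairs depend on where the threshold is set. At 10 counts or more in every library, IL-12 alone had both chains with GST and all 5 pairs did with GST-PTR1. At 1 RPKM or more in every library, no cytokine pair had both chains with GST and IL-27 alone had them with GST-PTR1, since IL12A was under that level in its pairs and IL23A in at least 1 library. The IL-27 receptor met both thresholds in both treatments. These are mRNA levels, and neither protein, secretion nor pairing of chains was measured.

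**Figure D2:**
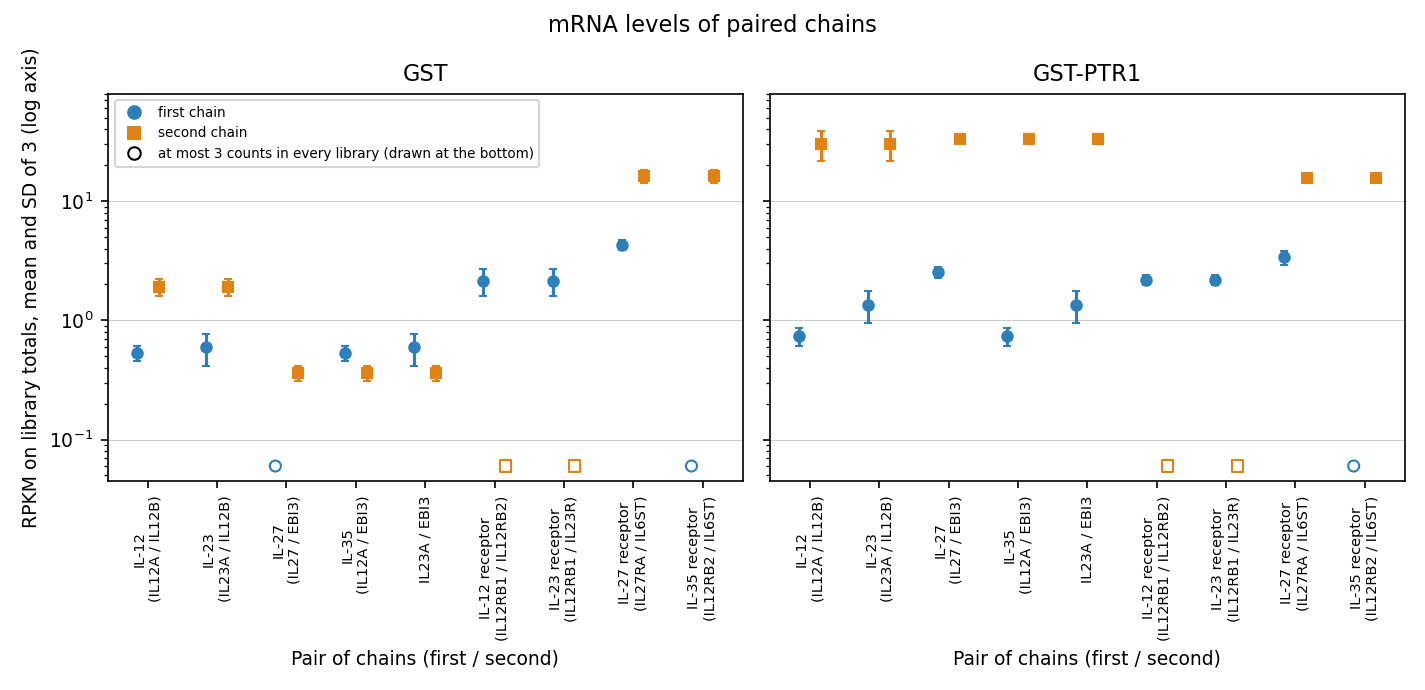
RPKM of both chains of each cytokine and receptor pair on a log axis, GST at left and GST-PTR1 at right, as mean and SD of 3 libraries, with open symbols at the bottom for chains with at most 3 counts in every library of the treatment. The second chains of the cytokine pairs, IL12B and EBI3, stand near 30.3 and 33.5 RPKM with GST-PTR1, and IL12RB2 and IL23R are at the bottom in both panels.

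Within each cytokine pair the β chain exceeded the α chain with GST-PTR1 in every library. The ratio of IL12B to IL12A in RPKM was 3.43, 3.86 and 3.52 with GST and 23.2, 51.4 and 54.7 with GST-PTR1. The ratio of IL12B to IL23A was 2.72, 4.82 and 2.74 with GST and 22.1, 19.7 and 26.2 with GST-PTR1. IL12B was thus the more abundant chain of IL-12 and IL-23 in both treatments, and the imbalance was larger with GST-PTR1.

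For EBI3 the order of the chains turned. The ratio of EBI3 to IL12A was 0.908, 0.578 and 0.603 with GST, below 1 in each library, and 34.3, 55.5 and 50.2 with GST-PTR1. Against IL23A it was 0.721, 0.721 and 0.469 with GST and 32.7, 21.3 and 24 with GST-PTR1. EBI3 was the far more abundant chain of both pairs with GST-PTR1. Its lower place with GST rests on few counts, 8, 8 and 11 for EBI3, 14, 22 and 29 for IL12A and 9, 9 and 19 for IL23A.

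In the IL-27 pair the ratio of EBI3 to IL27 with GST-PTR1 was 13.3, 14.3 and 12.1, and it is not given for GST because IL27 was at the limit. Its mean was 13.2 ± 1.14 (SD, n = 3). Between the β chains the ratio of EBI3 to IL12B was 0.265, 0.15 and 0.171 with GST and 1.48, 1.08 and 0.918 with GST-PTR1, so the chains were of similar abundance with GST-PTR1. Of the 6 ratios with a value in both treatments, the 5 of cytokine chains did not overlap between treatments. They share chains whose fold changes are given above, so they restate those changes and are not independent of each other. The exact two-sided permutation test gave p = 0.1 for each of these 5 ratios, the smallest 3 against 3 libraries allow, and p = 0.3 for IL6ST over IL27RA, which was 3.4, 4.7 and 3.32 with GST and 4.12, 4.63 and 5.26 with GST-PTR1. After Benjamini-Hochberg adjustment over the 6 ratios these exact values became 0.12 and 0.3, so none passed, and none could in a design of this size.

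Receptors of this family signal through Janus kinases, which phosphorylate STAT proteins that then enter the nucleus. Of 8 kinases and STATs, all were tested, 6 rose and none fell (all genes tested: 9.15% and 11.4%), with a median log2 fold change of 0.83 beside 0.01 over all genes tested. STAT3, used by IL-23 and IL-27, rose by 1.62 (SE 0.11, adjusted p = 1.46e-06), from 77.3, 65 and 63.7 CPM to 196, 193 and 165 CPM. STAT5A rose by 0.94 (SE 0.14, adjusted p = 0.000936). STAT4, the STAT of IL-12, JAK2 and TYK2 also rose, by 0.99, 0.71 and 0.49 with adjusted p = 0.00488, 0.0133 and 0.0198, and these were named after their values were seen. TYK2 overlapped between treatments in CPM on library totals. The list of kinases and STATs and the lists below were chosen with results of these libraries known. Their counts are not independent evidence of direction.

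Of 4 feedback inhibitors of this signalling, all were tested, 3 rose and none fell, where 9.15% of all genes tested rose and 11.4% fell. SOCS3, which inhibits kinases bound to IL6ST, was the largest of them, from 1.38, 1.15 and 1.36 CPM to 242, 186 and 167 CPM, a log2 fold change of 7.44 (SE 0.18, adjusted p = 1.09e-09). SOCS1, an inhibitor of Janus kinases, rose by 3.47 (SE 0.25, adjusted p = 2.7e-06), from 1.97, 0.996 and 2.35 CPM to 21.2, 15.4 and 15.6 CPM. PTPN2, a phosphatase acting on Janus kinases and STATs, rose by 0.63 (SE 0.12, adjusted p = 0.00428).

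Transcription factors known at the promoters of the subunit genes moved nearly all in one direction. Of 15 factors, 14 rose and 1 fell, where 9.15% and 11.4% of all genes tested did, and 11 rose at least 2-fold, against 3.68% of all genes tested. BATF, an AP-1 family member, went from 4.93, 6.57 and 6.18 CPM to 132, 145 and 169 CPM, a log2 fold change of 4.85 (SE 0.18, adjusted p = 2.29e-08). NFKBIZ, a nuclear IκB protein, rose by 3.56 (SE 0.13, adjusted p = 2.26e-08), and RELB, an NF-κB subunit, by 2.28 (SE 0.11, adjusted p = 2.16e-07). SPI1, a myeloid and B-cell factor, fell by 0.58 (SE 0.13, adjusted p = 0.0107), from 24.8, 19.4 and 20.4 CPM to 14.6, 12 and 11.3 CPM. This list was chosen with results of these libraries known, and is not independent evidence of its direction.

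**Figure D3:**
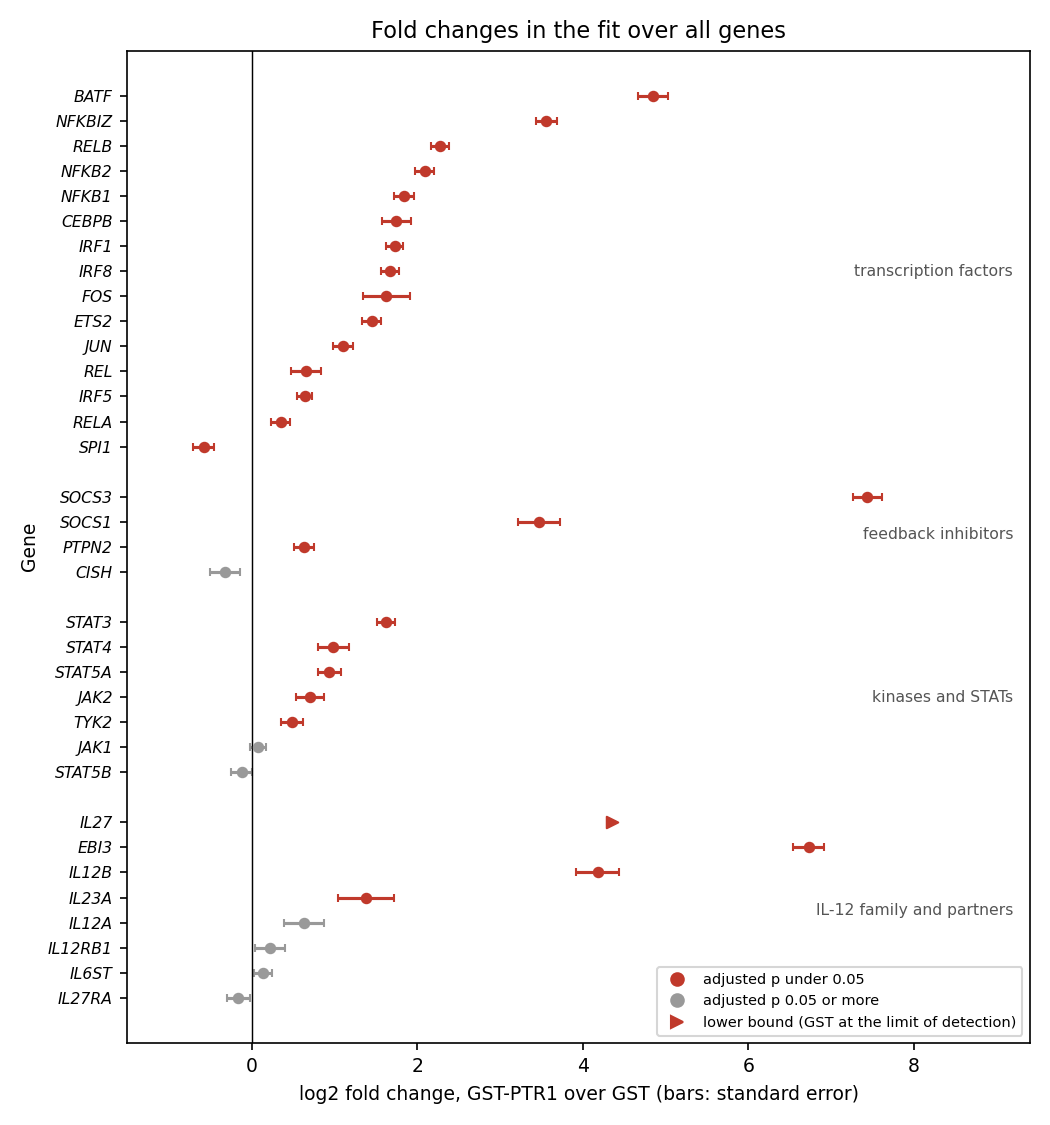
Log2 fold change of GST-PTR1 over GST with its standard error for the 7 tested genes of the family with IL6ST, for 7 of the 8 kinases and STATs, the feedback inhibitors and the transcription factors, red where the adjusted p was under 0.05 and grey otherwise, and a triangle for IL27 at its lower bound of 4.35. EBI3 at 6.73 and SOCS3 at 7.44 lie farthest right, and SPI1 at -0.58 lies left of 0.

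The IL-6 family shares the fold and the receptor chain IL6ST with the IL-12 family. Of 12 such relatives, 9 were tested, 4 rose and none fell, beside 9.15% and 11.4% of all genes tested, and the median log2 fold change of the 9 was 0.45. LIF, which signals through IL6ST, went from 1.71, 1.59 and 1.71 CPM to 104, 88.7 and 79.4 CPM, a log2 fold change of 5.95 (SE 0.14, adjusted p = 1.09e-09). IL6 had 0, 0 and 2 counts with GST and 68, 162 and 277 with GST-PTR1, at least 31.2-fold higher (adjusted p = 1.41e-05). CSF3, the granulocyte colony-stimulating factor, had 1, 0 and 1 counts with GST and 34, 57 and 76 with GST-PTR1, at least 10.9-fold higher (adjusted p = 1.58e-05). Like IL27, both passed the filter on low counts through the GST-PTR1 libraries.

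Of 12 genes known to respond to IL-12, IL-23 or IL-27 in lymphocytes, 5 were tested, 3 rose and 1 fell, again beside 9.15% higher and 11.4% lower over all genes tested. IL10, an inhibitory cytokine that IL-27 induces in T cells, went from 1.05, 0.946 and 0.682 CPM to 236, 299.6 and 349.8 CPM, a log2 fold change of 8.60 (SE 0.25, adjusted p = 4.99e-09). TBX21, the T-bet factor of IL-12 responses, rose by 2.23 (SE 0.22, adjusted p = 3.65e-05), and PRDM1, which is also on the plasma cell list, by 1.35 (SE 0.12, adjusted p = 1.56e-05). MAF, a transcription factor also known in myeloma, fell by 0.52 (SE 0.16, adjusted p = 0.0418). The 4 genes with 0 counts in all libraries, named after their values were seen, were IFNG, IL18RAP, IL22 and IL17A, the cytokines by which T and NK cells answer IL-12 and IL-23 among them. The receptor chains IL12RB2 and IL23R also had 0 counts in all 6 libraries, while both chains of the IL-27 receptor were detected. Whether any of these changes answers a cytokine of the family was not tested.

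Over the kinase, inhibitor, transcription factor, relative and responder lists and the partner chains, 42 genes were tested, of which 30 were called higher and 2 lower (all genes tested: 9.15% and 11.4%). Because these lists were chosen with results of these libraries known, their difference from all genes tested is not independent evidence. The 2 lower calls, SPI1 and MAF, were not steady: their number was 0 when the GST-PTR1 library with 28837431 counts was left out, and 1 when a GST library (15202503 or 23453473 counts) or the largest GST-PTR1 library (44688737 counts) was.

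Genes close to the 8 on the chromosome were examined next. With their whole span within 100 kb of either end of one of the 8 lay 65 other genes, of which 30 were tested, 2 rose and 6 fell. Over all genes tested 9.15% rose and 11.4% fell, and counts this small are not read as a result about the neighbours. Near EBI3, YJU2, a splicing factor gene, rose by 0.42 (adjusted p = 0.0327) beside the 6.73 of EBI3, and its level was 22.1, 23.4 and 26.6 CPM with GST and 27.1, 28.5 and 28.4 CPM with GST-PTR1. Near IL23A, COQ10A and PAN2, a subunit of a poly(A) nuclease, fell by 0.69 and 0.55 (adjusted p = 0.0071 and 0.0233). No tested neighbour of IL27 or IL12B, of which there were 4 and 2, passed the test, and no neighbour of IL12A was tested.

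Near IL12RB1, 5 neighbours were tested, of which 1 rose and 1 fell, and near IL27RA 7 were tested, of which 3 fell. Close to IL12RB1, IFI30, a lysosomal reductase, rose by 1.07 (adjusted p = 0.0117) and MAST3, a kinase gene whose start lies 1.2 kb from that of IL12RB1, fell by 0.77 (adjusted p = 0.0139). Near IL27RA, MISP3, SAMD1 and PRKACA, a catalytic subunit of protein kinase A, fell by 1.27, 0.50 and 0.51 (adjusted p = 0.00186, 0.0475 and 0.0348). Some of these calls rest on single libraries. Higher calls numbered 0 when the GST-PTR1 library with 28837431 counts was left out, and 1 when the smallest GST library (15202503 counts) or the largest GST-PTR1 library (44688737 counts) was. Lower calls numbered 3 in each of these fits.

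**Figure D4:**
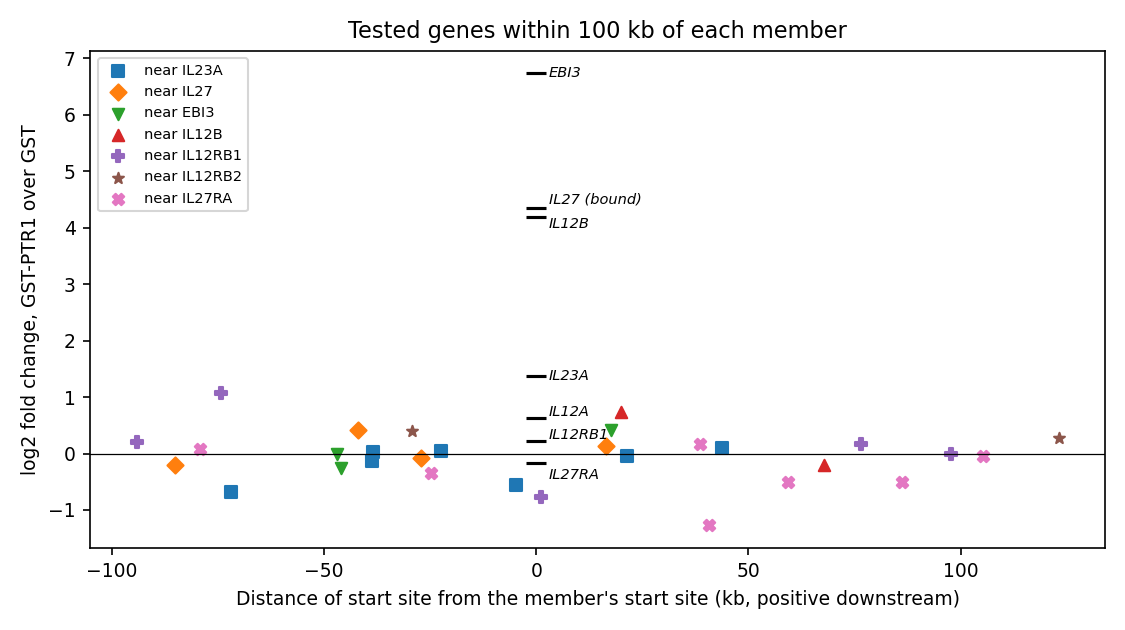
Log2 fold change of GST-PTR1 over GST for the 30 tested genes whose whole span lies within 100 kb of a family gene. It is drawn against the distance in kb between start sites, positive downstream, with the family genes as dashes at 0. Distances can exceed 100 kb because they run from the family gene's start site, while the 100 kb also run from its far end. The neighbours lie between MISP3 at -1.27 and IFI30 at 1.07, below EBI3 at 6.73, IL27 at its bound of 4.35 and IL12B at 4.18.

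The genes most like EBI3 were found by the Euclidean distance between log2 CPM profiles over the 6 libraries, each centred on its mean. In order they were LINC02605 at 0.51, TNFSF9 at 0.56, ELF3 at 0.69, MIR155HG at 0.80 and C1QB at 0.82. TNFSF9, the ligand of a costimulatory receptor on T cells, was at 1.05, 0.697 and 0.725 CPM with GST and 53.4, 55 and 53.3 CPM with GST-PTR1. MIR155HG, the host transcript of a microRNA of activated lymphocytes, was at 0.724, 0.797 and 0.64 CPM and at 92.7, 85.2 and 92.4 CPM. ELF3, an ETS-family transcription factor, was at 0.724, 0.498 and 0.682 CPM and at 83.5, 77.9 and 76.8 CPM. C1QB, a chain of complement C1q, had 1 count in each GST library and 121, 236 and 369 counts with GST-PTR1. None of these 5 is a subunit or receptor of the IL-12 family.

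Within the family, IL27 ranked closest to EBI3, at a distance of 1.58 and rank 21 of 16925 other genes tested, and IL12B followed at 2.99 and rank 62. IL23A ranked 466 and IL12A 1149, while IL12RB1 ranked 4218 and IL27RA 11140. The profiles were centred but not scaled, so the distance depends on the size of the change between treatments. These ranks within the family follow the order of the fold changes and add no separate result. The profiles of IL27 and of C1QB rest on counts at the limit of detection with GST, so their distances depend on the prior count of 2. LINC02605 and C1QB, like IL27, passed the filter on low counts through the GST-PTR1 libraries, with 0 GST libraries at 0.432 CPM or more. When the profiles were scaled to unit variance, 0 of the 5 nearest genes were shared with the list by distance.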

How the data were processed

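Strand-specific mRNA libraries of RPMI8226 cells treated with 100 nM GST or GST-PTR1 for 6 hr, 3 per treatment, were sequenced. The deposited values are raw gene counts, which the authors obtained, per the file headers, with featureCounts 1.5.0-p1 on Ensembl release 75 of GRCh37 (reverse strand). Multi-mapping reads and reads shared by genes were not counted. The submitters' processing notes also name FastQC, Subread, limma and hg19. The aligner version is not given in the sources used here. Reads were not normalized and replicates were not pooled, and the table also gives exon lengths.

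From these counts, CPM and RPKM were computed on library totals. Treatments were compared in R 4.3.3 with edgeR 4.0.16 (TMM factors, filterByExpr, glmQLFit and glmQLFTest), with Benjamini-Hochberg adjustment over the 16926 genes tested and a threshold of 0.05. Log2 fold changes are from that fit. The fitting code was tested on simulated counts, with the main filter and without a replicate block. Changes were planted only in well-counted genes, with the same spread set for all genes. That simulation therefore does not cover genes of few counts such as IL12A and IL23A. Single values were compared by exact two-sided permutation tests over the 6 libraries, which cannot go below p = 0.1. Profiles were compared on log2 CPM with a prior count of 2. Alternatives used DESeq2 1.42.0 (its size factors and its test), limma 3.58.1 with voom, library totals, filters of 1 count in any library or 10 counts in every library, each library left out, and a block on the column number.

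Column names gave each library's treatment but fit no replicate number. Libraries of a treatment differed by more than sampling noise (chi-square per gene of 8.37 or more). The p-values measure the spread between these libraries. Gene names were matched by identifier for 39699 rows, and 5904 rows off the primary chromosomes held 0 counts. Promoters were taken from RefSeq on GRCh38.p14, for 7 of the 8 genes, and no coordinates were moved between builds.

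The 8 genes and all gene lists were chosen with earlier results of these data known. Beside the 8 genes, the text names IL6ST and IL23R, the 3 genes of each list with the smallest adjusted p, the most lowered gene of a list where it passed the test, the genes within 100 kb that passed, the 5 genes most like EBI3 and the markers. A gene of the lists, counted in their totals, is not reported here by name.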

Additional observations from a re-analysis of the deposited data

How the results depend on the processing

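The directions and calls of EBI3, IL12B and IL27 held in each alternative that tested them, with log2 fold changes of 6.53 to 6.89 for EBI3 and 3.97 to 4.41 for IL12B, and IL12A, IL12RB1 and IL27RA passed in none (lowest adjusted p = 0.0767, 0.289 and 0.114). IL23A ranged from 1.18 to 1.67 with adjusted p from 0.000197 to 0.0589, and from 1.20 to 1.67 when 1 library was left out. It missed the threshold at 1.20 without the GST library of 20077280 counts and at 1.21 without the GST-PTR1 library of 28837431 counts. With 10 counts required in every library, 1 of the 8 genes was called higher, because EBI3, IL23A and IL27 were then not tested. No alternative thus tested EBI3 or IL27 with counts required in every GST library. Their steady calls are not independent support. When 1 library was left out, the number of lower calls over the lists ranged from 0 to 3, that of higher neighbours from 0 to 3, and that of lower neighbours from 3 to 6. Higher neighbours numbered 1 on library totals, 4 with the DESeq2 test and 4 with a filter of 1 count in any library. The cytokine pairs with both chains numbered 1 with GST at 10 counts, 0 with GST at 1 RPKM and 1 with GST-PTR1 at 1 RPKM. The nearest genes to EBI3 shared 0 of 5 when profiles had unit variance. The causes of these shifts were not tested.

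Library totals in place of TMM factors shifted the median over all genes by -0.20 (log2), from 0.01 to -0.19, and gave 927 genes higher and 3788 lower where TMM gave 1549 and 1937. A filter of 1 count in any library tested 31617 genes and called 2608 higher and 2306 lower. Leaving out 1 library gave 1051 to 1531 higher and 1179 to 1818 lower. Only 4 libraries have column numbers that occur in both treatments. With a replicate block on these numbers EBI3 was at 6.89, IL12B at 4.28 and IL23A at 1.55, against 6.89, 4.28 and 1.54 without the block, and no call of the 8 genes changed. Over all genes the block gave 1603 higher and 1715 lower, against 1790 and 1848. Across genes, the differences of like-numbered libraries correlated at r = -0.0305 over 2 pairs, so the numbers were not read as pairs. Depth limits IL12RB2 and IL23R, at 0 counts, and IL27 with GST.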
